A study of Sus scrofa with 13 samples.

Results

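Collagens are the structural proteins of the extracellular matrix, and the collagen genes were taken here as all rows of the deposited count table whose gene symbol had the form COL, number, A, number. This rule gave 40 genes of the 35670 in the table. RNA had been sequenced from liver biopsies of female Yorkshire pigs, with 2 livers at baseline, 3 ischemic controls, 4 livers after arterial infusion and 4 after portal infusion. Baseline biopsies were taken before any clamping. The other 3 groups shared 45 min of total vascular exclusion, in which the vessels to and from the liver are clamped, followed by 6 h of reperfusion. Ischemic controls received no cells. The infused livers received 3000000 human bone marrow mesenchymal stromal cells (BM-MSCs) per kg, through the hepatic artery or through the portal vein. The labels do not say whether the baseline livers were sampled again at 6 h, nor from which site of the liver each library came. Peripheral and central biopsies of the right and left lobes were collected. The paper reports less human B2M RNA, its marker of the infused cells, in the left lobe after portal than after arterial infusion. In the right lobe it found no significant difference by route. Reads were mapped to the pig genome alone, so the values do not tell pig RNA from RNA of the infused human cells that mapped to pig genes.

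A collagen molecule is a rope-like helix of alpha chains, and each COL gene encodes 1 alpha chain. Fibrillar collagens, chiefly types I, III and V, assemble into the tensile fibrils of portal tracts and capsule, and their deposition by activated hepatic stellate cells and portal fibroblasts is the hallmark of liver fibrosis. Type IV collagens form the sheet-like networks of basement membranes under vessels and bile ducts, type VI collagens form beaded filaments around cells, FACITs (fibril-associated collagens with interrupted helices) decorate fibrils, and type XVIII, a multiplexin, is a basement membrane collagen whose cleaved end is endostatin. The comparisons address how the transcripts of these classes stood in the injured liver at the end of follow-up, and whether livers given cells by either route differed from livers that were not.

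Of the 40 collagen genes, 11 were fibrillar, 6 type IV, 5 type VI, 8 FACITs, 2 multiplexins, 4 transmembrane and 4 network-forming, anchoring or other collagens. The filter on low counts left 31 of them in the test across 16481 genes: 8 fibrillar, 6 type IV, 5 type VI, 6 FACIT, 2 multiplexin, 3 transmembrane and 1 other. The 9 that were not tested were near the detection limit. COL9A1 and COL28A1 had 44 reads each over all 13 libraries, COL2A1, the cartilage fibril collagen, had 31, COL10A1 had 27, COL8A2, COL25A1 and COL11A1 had 9 each, COL22A1 had 7 and COL11A2 had 3. Of the COL9A1 reads, 40 lay in portal infusion 1, and all 7 reads of COL22A1 lay in ischemic control 3. A count of 0 allows up to 3 reads, so none of these can be called absent. COL7A1, COL9A2, COL20A1 and COL26A1 had no row under these symbols in the count table. Of its 35670 rows, 17640 had a symbol of their own, so the 40 genes may not be the whole family.

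The 13 libraries held between 18975413 and 35949178 counts, with a median of 30260803. Collagen reads made up 0.0615% of all counts in arterial infusion 2 (exact 95% binomial interval 0.0607% to 0.0623%) and 0.349% in ischemic control 3 (0.347% to 0.351%), with the other libraries between, and these intervals cover counting error only. A set of 4 libraries was marked out by sample quality weights, while its numbers of detected genes overlapped those of the rest. Portal infusion 1, arterial infusion 1, portal infusion 4 and ischemic control 2 had the lowest sample quality weights of limma, between 0.133 and 0.435 against 0.862 to 3.61 in the other 9, and between 23 and 31 collagen genes with at least 1 read in them against 31 to 38. Thinned to the same total, these libraries had 13573 to 16993 genes with a read, against 15638 to 19326 in the others. Some counts and medians over all collagens, and the differences between fibrillar and type IV collagens, are also given without these 4 libraries. The counts and medians by class and those of the marker and gene lists were taken with them. So were the unadjusted counts over the 4 groups and in 6 h livers against baseline. The weights were fitted with the groups known, so leaving these libraries out narrows the spread within groups by construction. The values of most single genes are given for every library. Hepatocyte genes dominated every library, with ALB, the gene of albumin, between 468110 and 2126050 normalized counts (the count divided by the DESeq2 size factor of its library). As the biopsies were sequenced whole, fewer cells of a type and less RNA per cell cannot be told apart.

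No collagen gene passed an adjusted p of 0.05 in any comparison, nor did any of the 16481 genes in the edgeR quasi-likelihood test with Benjamini-Hochberg adjustment. At an unadjusted level of 0.05, the test over the 4 groups picked out 2 of the 31 collagens, COL6A2 (edgeR, unadjusted p = 0.0245, adjusted p = 1.00) and COL1A1 (unadjusted p = 0.0250, adjusted p = 1.00). That is 6.45% of the collagens against 2.39% of all genes. The number was 0 without ischemic control 3 or portal infusion 4, 6 without arterial infusion 4, and 1 to 4 without any other single library. Where a count at an unadjusted p is given with libraries left out, the share of all genes under that omission is not given here. A change in such a count cannot be read as particular to collagens. The values are therefore given library by library. Where a direction is stated, it is the direction of an estimate that did not pass the adjusted threshold.

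COL1A1 encodes the major chain of type I collagen, the main fibril of scar, and lies on chromosome 12 at 26379087 to 26397180 (RefSeq positions, Sscrofa11.1). Its normalized counts were 1834 and 2829 at baseline, 10109.5, 2719 and 20604 in ischemic controls 1 to 3, 2054, 683, 1399 and 10968 after arterial infusion, and 3141, 1917, 640.1 and 1326 after portal infusion. Ischemic controls 1 and 3 and arterial infusion 4 were the 3 highest libraries, while ischemic control 2 lay within the baseline range. The log2 fold change of ischemic controls against baseline was 2.28 ± 1.09 (standard error, edgeR, unadjusted p = 0.0554, adjusted p = 0.978), and it was 1.49 without ischemic control 3. Infused livers had a log2 fold change of -2.17 ± 0.69 against ischemic controls (edgeR, unadjusted p = 0.00669, adjusted p = 1.00; exact permutation p = 0.0424). Arterial infusion 4 and portal infusion 1 overlapped the controls, both lying above ischemic control 2. Both comparisons use the same 3 ischemic controls.

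COL1A2, on chromosome 9 at 74174484 to 74210407, encodes the partner chain of type I collagen. It had 2127 and 3247 normalized counts at baseline, 4546, 1379.9 and 4557 in ischemic controls, 1048, 888, 1427 and 3742 after arterial infusion, and 721, 1939.9, 700.3 and 303 after portal infusion. Ischemic control 2 lay below both baseline libraries, and 7 of the 8 infused livers lay below both baseline libraries. The log2 fold change of infused livers against controls was -1.48 ± 0.54 (edgeR, unadjusted p = 0.0156, adjusted p = 1.00). COL3A1, the type III chain that accompanies type I in pliable fibrils, had 6177 and 11606 normalized counts at baseline, 10707, 1432 and 10159 in ischemic controls, 914, 2648, 5505 and 10163 after arterial infusion, and 724, 5258, 2749 and 602 after portal infusion. The 4 lowest COL3A1 values were those of the 4 libraries with the lowest quality weights. Its log2 fold change in infused livers against controls was -1.17, within 2 standard errors of 0.

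COL5A1, a type V chain that starts fibrils, had 861 and 648 normalized counts at baseline, 1519, 1205 and 1938 in ischemic controls, 678, 797, 747 and 2012 after arterial infusion and 1796, 849, 779 and 512 after portal infusion. All 3 controls lay above both baseline libraries, with a log2 fold change of 1.04 ± 0.58 (edgeR, unadjusted p = 0.0927, adjusted p = 0.978), and 6 of the 8 infused livers lay below all 3 controls. COL5A2, the second type V chain, had 581 and 768 at baseline, 811, 224 and 772 in controls, 295, 507, 449 and 1168 after arterial infusion and 430.4, 466.1, 409 and 144 after portal infusion, and its groups overlapped in each comparison. COL5A3 had 362 and 263 at baseline, 575, 273 and 267 in controls, 161, 222, 273 and 376 after arterial infusion and 180.0, 202, 217 and 152 after portal infusion. Its 4 portal values lay below all 3 controls, with a log2 fold change of -1.03 ± 0.44 (edgeR, unadjusted p = 0.0324, adjusted p = 1.00; exact permutation p = 0.0286, the smallest that 4 against 3 libraries can give).

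**Figure D1:**
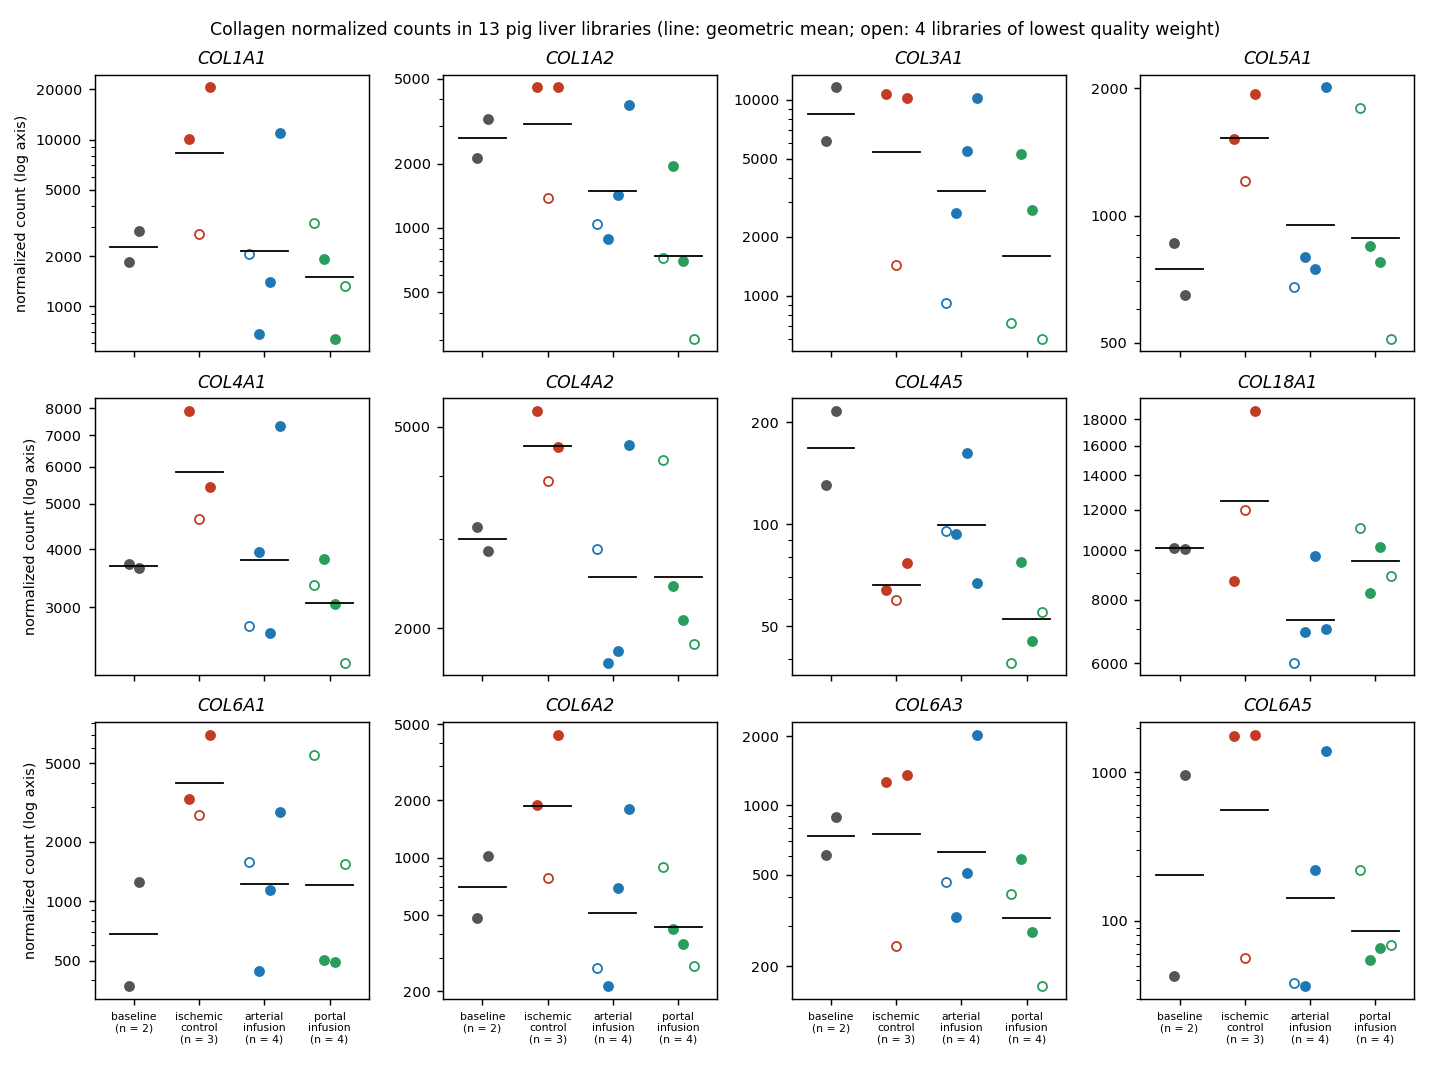
Normalized counts (log axis) of 12 collagen genes in the 13 libraries, by group, with the geometric mean of each group as a line and the 4 libraries of lowest quality weight as open circles. COL1A1 reached 10109.5 and 20604 in 2 ischemic controls and 10968 in 1 arterially infused liver, while COL18A1 stayed between 6025 and 18701 in all libraries.

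The main chains of type IV collagen, COL4A1 and COL4A2, lie head to head on chromosome 11, at 76858332 to 76997409 and 76996885 to 77161617, and their annotated spans overlap by 525 bases. The libraries did not keep the strand, so reads in this overlap cannot be told apart. COL4A1 had 3711 and 3648 normalized counts at baseline, 7898, 4646 and 5427 in ischemic controls, 2736, 3933, 2645 and 7318 after arterial infusion, and 3345, 3809, 3051 and 2287 after portal infusion. All 3 controls lay above both baseline libraries. All 4 portal livers lay below all 3 controls, as did every arterial liver but arterial infusion 4. The log2 fold change of COL4A1 was 0.71 ± 0.50 in controls against baseline (edgeR, unadjusted p = 0.175, adjusted p = 0.978), -0.77 ± 0.35 in infused livers against controls (unadjusted p = 0.0447, adjusted p = 1.00) and -0.98 ± 0.41 in portal livers against controls (unadjusted p = 0.0293, adjusted p = 1.00; exact permutation p = 0.0286). COL4A2 had 3163 and 2839 at baseline, 5370.0, 3914 and 4549 in controls, 2867, 1711, 1803 and 4611 after arterial infusion, and 4301, 2425, 2078 and 1862 after portal infusion. Again the controls lay above baseline, and 6 of the 8 infused livers lay below all 3 controls, with a log2 fold change of -0.81 ± 0.35 (edgeR, unadjusted p = 0.0349, adjusted p = 1.00).

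COL4A5, a chain of the type IV network found in specialised basement membranes, took the other direction. It had 130.4 and 216 normalized counts at baseline, 64.1, 59.5 and 76.6 in ischemic controls, 95.5, 93.8, 162 and 67.1 after arterial infusion and 39.0, 77.5, 45.1 and 55.2 after portal infusion. Of the 11 livers at 6 h only arterial infusion 3 lay above the lower baseline library. The log2 fold change was -1.37 ± 0.64 in controls against baseline (edgeR, unadjusted p = 0.0485, adjusted p = 0.978) and -1.26 ± 0.49 over all 6 h livers, where the 3 reperfused groups counted equally (unadjusted p = 0.0223, adjusted p = 0.860; exact permutation p = 0.0256). It was the only collagen of 31 with an unadjusted p under 0.05 in the latter comparison, 3.23% against 4.78% of all genes. Arterial and portal livers differed in COL4A5 by 0.97 ± 0.51 on the log2 scale, higher after arterial infusion (edgeR, unadjusted p = 0.0753, adjusted p = 1.00). COL4A6, its neighbour on the X chromosome, had 132 and 137 at baseline, 98.9, 133 and 97.6 in controls, 126, 76.1, 135 and 153 after arterial infusion, and 0, 85.0, 147 and 13.5 after portal infusion. Its 2 low values came from portal infusion 1 and 4, both among the libraries of lowest quality weight. COL4A3 and COL4A4 held 279 and 225 reads in all, and had none in 4 and 3 libraries, which were among those of lowest quality weight.

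COL18A1, on chromosome 13 at 207907835 to 207984082, had the most reads of any collagen gene, 134202, and the least spread between replicates. Its normalized counts were 10104 and 10046 at baseline, 8715, 11951 and 18701 in ischemic controls, 6025, 6911, 9735 and 7022 after arterial infusion, and 11048, 8245, 10131 and 8908 after portal infusion. All arterial livers but arterial infusion 3 lay below every other library, and the portal livers lay near baseline. The log2 fold change was -0.82 ± 0.35 in arterial livers against controls (edgeR, unadjusted p = 0.0338, adjusted p = 1.00) and -0.66 ± 0.30 in all infused livers (unadjusted p = 0.0482, adjusted p = 1.00). Without ischemic control 3 the latter was -0.34.

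Type VI chains had the class median farthest from 0 in controls against baseline and in infused livers against controls. COL6A1, COL6A2 and COL6A3 encode the chains of the classical beaded filament, and COL6A5 and COL6A6 encode alternatives to the third. COL6A1 had 371 and 1259.6 normalized counts at baseline, 3303, 2737 and 6979 in ischemic controls, 1586, 447, 1145 and 2839 after arterial infusion, and 5545, 502, 491 and 1539.7 after portal infusion. All 3 controls exceeded both baseline libraries, with a log2 fold change of 2.43 ± 1.03 (edgeR, unadjusted p = 0.0333, adjusted p = 0.978). The estimate was 3.51 without baseline 2 and 1.80 without baseline 1a. This was the smallest unadjusted p of any collagen in that comparison, and DESeq2 on the 5 libraries alone called it (log2 fold change 2.45, adjusted p = 0.0234). Exact permutation gave p = 0.1, the smallest that 2 against 3 libraries allow.

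COL6A2 had 483 and 1017 at baseline, 1881, 784 and 4395 in ischemic controls, 263, 212, 689.5 and 1799 after arterial infusion, and 897, 422, 351 and 269.9 after portal infusion. Ischemic controls 1 and 3 were above all other libraries, and 6 of the 8 infused livers were below all 3 controls. Its log2 fold change in infused livers against controls was -2.02 ± 0.59 (edgeR, unadjusted p = 0.00404, adjusted p = 1.00; exact permutation p = 0.0303), and it had the smallest unadjusted p of the collagens against controls in both routes, -1.69 ± 0.72 after arterial (unadjusted p = 0.0333, edgeR, adjusted p = 1.00) and -2.35 ± 0.73 after portal infusion (unadjusted p = 0.00584, edgeR, adjusted p = 1.00). The arterial estimate became -0.89 when ischemic control 3 was left out, and -2.60 when arterial infusion 4 was. COL6A3, the long chain, had 609 and 886 at baseline, 1267, 243 and 1359 in controls, 462, 326, 510.3 and 2024 after arterial infusion, and 413, 584, 281 and 163 after portal infusion. The highest and the lowest values of COL6A3 both stood outside the control range, in arterial infusion 4 and portal infusion 4.

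COL6A5, on chromosome 13 at 2029543 to 2174404, varied more between replicates than any other collagen with reads in all 13 libraries. It had 42.4 and 964 normalized counts at baseline, 1746, 56.0 and 1787 in ischemic controls, 38.4, 36.2, 219 and 1380.1 after arterial infusion, and 220.3, 54.2, 65.2 and 68.7 after portal infusion. A set of 4 libraries from 3 groups (baseline 2, ischemic controls 1 and 3 and arterial infusion 4) held 964 or more, and the other 9 held 220.3 or less. The log2 fold change of infused livers against controls was -2.61 ± 1.02 (edgeR, unadjusted p = 0.0224, adjusted p = 1.00), while the exact permutation test gave p = 0.145.

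Among the FACITs, COL14A1 had 643 and 1294 normalized counts at baseline, 943, 294 and 768 in ischemic controls, 195, 412, 595 and 1173 after arterial infusion, and 223, 599, 362 and 182 after portal infusion. COL12A1, which like COL14A1 coats type I fibrils, had 288 and 604, then 1103, 198 and 549, then 349, 227, 215 and 999, then 399, 356, 165 and 251 in the same order. Both genes overlapped between groups in each comparison. COL16A1 had 116 and 133 at baseline, 244, 144 and 331 in controls, 88.3, 80.8, 78.7 and 334 after arterial infusion, and 235, 99.0, 100.3 and 81.0 after portal infusion, so that the controls lay above baseline (log2 fold change 0.96 ± 0.75) and arterial infusion 4 reached the highest control. COL8A1, a short-chain network collagen of vessel walls, had 49.4 and 53.8 at baseline, 23.7, 45.5 and 28.2 in controls, and between 7.02 and 73.4 in infused livers. All 3 controls lay below baseline in this gene.

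Over the whole family, ischemic controls against baseline gave 20 of 31 collagens with a log2 fold change above 0, 64.5% against 50.2% of all genes, with a median of 0.37 where the median over all genes was 0.00. The 5 type VI chains were all above 0 (median 1.30), as were 5 of 8 fibrillar (median 0.22), 3 of 6 type IV (median -0.14) and 3 of 6 FACIT genes (median 0.16). Type IV was divided, with COL4A1 and COL4A2 above 0 and COL4A5 below. Only COL6A1 and COL4A5 had an unadjusted p under 0.05, 6.45% of the collagens against 4.37% of all genes in edgeR, and this count was 0 without baseline 1a or ischemic control 3, 5 without the 4 libraries of lowest quality weight, and 1 to 3 without any other single library. The share of all genes under these omissions is not given here. The groups did not overlap in 8 collagens, COL6A1, COL5A1, COL4A1, COL4A2 and COL16A1 being higher in controls and COL4A5, COL8A1 and COL24A1 lower. That is 25.8%, where 31.1% of all genes did not overlap. Without the 4 libraries of lowest quality weight, which leaves 2 against 2, it was 18 collagens, 58.1% against 42.9% of all genes. The median was 0.10 without ischemic control 1, 0.18 without ischemic control 3, 0.21 without baseline 1a and 0.57 without baseline 2. Without the 4 libraries of lowest quality weight, 10 of 31 collagens were below 0 in place of 11, and the median was 0.45.

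Infused livers against ischemic controls gave 26 of 31 collagens with a log2 fold change below 0, 83.9% against 52.1% of all genes. The median was -0.77, where all genes had a median of -0.02. All 5 type VI genes (median -2.02), all 6 FACITs (median -0.72), both multiplexins (median -0.93), 7 of 8 fibrillar genes (median -0.72) and 4 of 6 type IV genes (median -0.50) were below 0, and the 3 transmembrane genes had a median of 0.18. In edgeR 7 collagens had an unadjusted p under 0.05, all with lower estimates in infused livers: COL6A2, COL1A1, COL1A2, COL6A5, COL4A2, COL4A1 and COL18A1. That is 22.6% of the collagens, against 1.41% of all genes lower at this level. Without a filter on low counts, edgeR called COL1A1, COL6A2 and COL6A5 (adjusted p = 0.00740, 0.00665 and 0.00464).

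This count rested on single livers. Without ischemic control 3, the control with the highest COL1A1, COL6A1 and COL6A2, 1 of 31 collagens had an unadjusted p under 0.05, and without ischemic control 1 it was 3. Leaving out arterial infusion 2, portal infusion 3 or portal infusion 4 gave 4. Leaving out ischemic control 2 gave 12, and leaving out arterial infusion 4 gave 12 as well. Without the 4 libraries of lowest quality weight it was 11, with 24 of 31 below 0 and a median of -0.78. In each of these sets the median of the collagens stayed between -0.58 and -0.94. The share of all genes at this level in these sets is not given here, so the changes in count cannot be read as particular to collagens. Leaving out ischemic control 3 moved the COL1A1 estimate to -1.40, and leaving out arterial infusion 4 moved it to -2.89. One collagen separated the 8 infused livers from the 3 controls entirely, 3.23% of the family against 0.564% of all genes. This was COL24A1, a fibrillar collagen named here after its values were seen, with 9.49, 8.76 and 6.50 normalized counts in controls, 22.3, 70.6, 12.2 and 18.9 after arterial and 49.1, 13.1, 15.05 and 44.2 after portal infusion. Its log2 fold change was 1.83 ± 0.91 (edgeR, unadjusted p = 0.0642, adjusted p = 1.00; exact permutation p = 0.0182), on 290 reads in all, and the baseline livers had 12.3 and 10.5. In the other 9 libraries, without the 4 of lowest quality weight, 7 collagens separated these groups, 22.6% against 12% of all genes, 5 of them lower in infused livers.

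**Figure D2:**
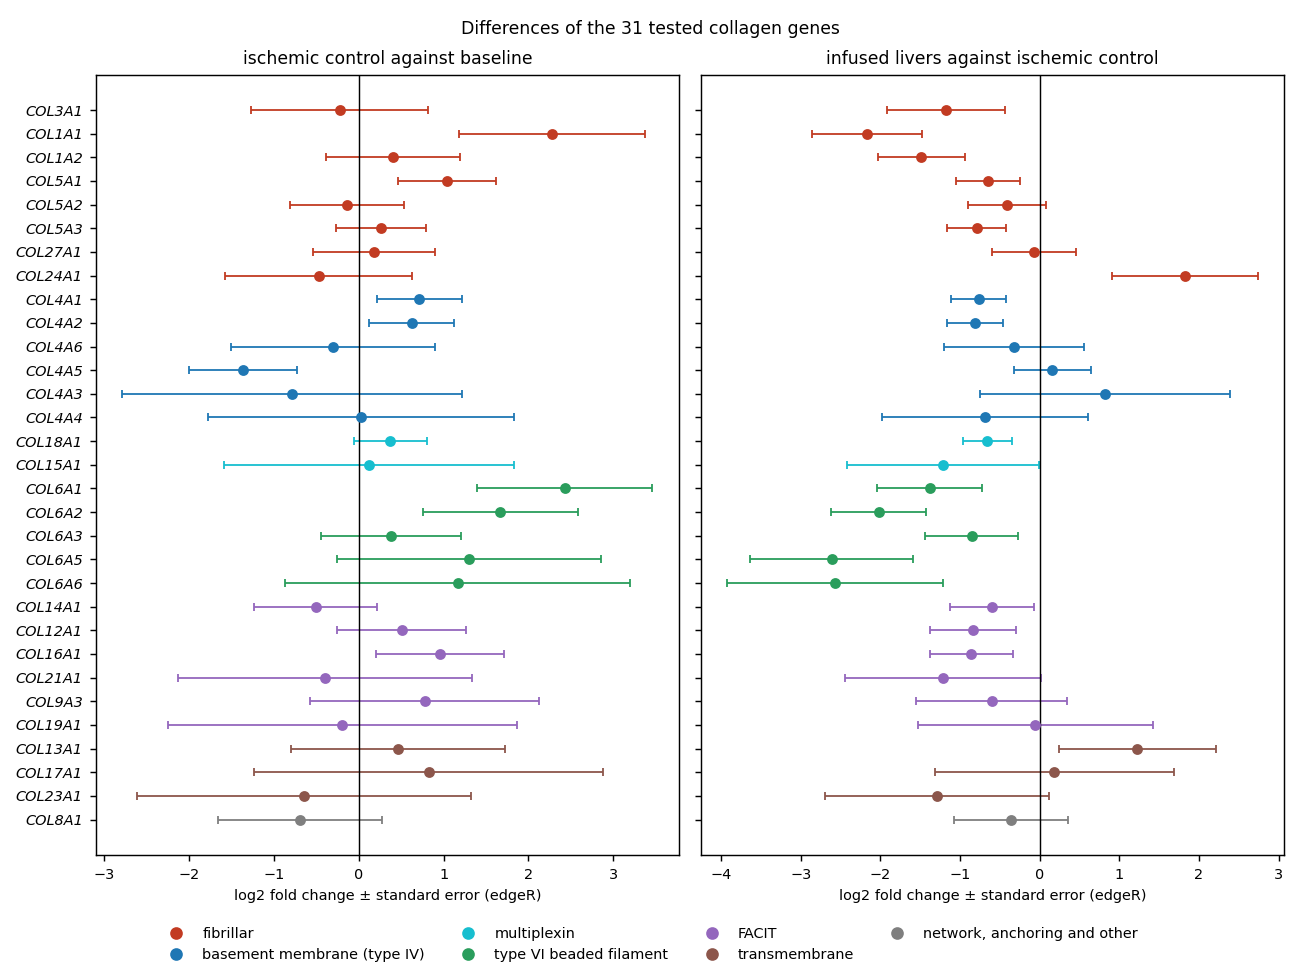
Log2 fold changes with standard errors (edgeR) of the 31 tested collagen genes, grouped by class, in ischemic controls against baseline and in infused livers against ischemic controls. All 5 type VI genes lay above 0 in the left panel and below 0 in the right panel, and both panels share the 3 ischemic controls.

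By route, the comparison with ischemic controls gave 28 of 31 collagens below 0 after portal infusion, 90.3% against 51.9% of all genes (median -0.999), and 21 of 31 after arterial infusion, 67.7% against 49.2% (median -0.55). These comparisons share the control livers. A lower estimate with an unadjusted p under 0.05 in edgeR was found after portal infusion for 7 collagens (22.6% against 1.66% of all genes), namely COL6A2, COL1A1, COL1A2, COL6A5, COL4A1, COL5A3 and COL6A3. After arterial infusion 2 did so, COL6A2 and COL18A1 (6.45% against 0.94%). The portal count was 4 without ischemic control 1 or portal infusion 4, and 12 without ischemic control 2 or without the 4 libraries of lowest quality weight. The arterial count was 10 without arterial infusion 4, 5 without the 4 libraries of lowest quality weight, 0 without ischemic control 3, arterial infusion 1 or arterial infusion 2, and 1 without arterial infusion 3 or either baseline library. The shares of all genes beside these changed counts are not given here. Portal livers did not overlap controls in 5 collagens, 16.1% against 3.72% of all genes, of which COL4A1, COL5A3, COL4A4 and COL6A6 were lower and COL24A1 higher. COL4A4 and COL6A6 had no read in portal infusion 1 and 4. Arterial livers did not overlap controls in 1, COL24A1, 3.23% against 3.19%. Leaving out the 4 libraries of lowest quality weight, these counts were 22 of 31 (71.0% against 44.1% of all genes) for portal livers, with 2 libraries a group, and 8 (25.8% against 17.8%) for arterial livers.

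Compared directly, arterial and portal livers gave no collagen with an unadjusted p under 0.05 in edgeR, while 2.4% of all genes had one. Of the 31 collagens, 28 had a higher estimate after arterial infusion, 90.3% against 52.9% of all genes, with a median of 0.80. That count rested on arterial infusion 4. Without it, 12 of 31 were lower after arterial infusion in place of 3, and the median was 0.22. Without the 4 libraries of lowest quality weight 3 of 31 were lower, and the median was 0.58. The smallest p after that of COL4A5 was for COL6A3, with a difference of 1.22 ± 0.64 (edgeR, unadjusted p = 0.0783, adjusted p = 1.00), which was 0.29 without arterial infusion 4. A difference between the routes was thus not detectable at this spread.

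How much replicates varied differed between chains of the same class. The standard deviation of log2 normalized counts within groups had a median of 0.91 over all tested genes, 0.83 over the 8 fibrillar and 1.20 over the 6 type IV genes. Among type IV chains it was 0.43 for COL4A5, 0.47 for COL4A1 and 0.51 for COL4A2, but 1.90 for COL4A6, 1.94 for COL4A4 and 2.54 for COL4A3, which have libraries at 0. Among fibrillar chains it was 0.45 for COL5A3, 0.52 for COL27A1, 0.63 for COL5A1, 0.83 for COL5A2 and 0.96 for COL1A2, and 1.33 for COL1A1 and 1.47 for COL3A1. It was 0.33 for COL18A1, 1.27 for COL6A1, 1.12 for COL6A2, 1.05 for COL6A3 and 2.29 for COL6A5.

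Summed over their members, fibrillar collagens reached 12005 and 19473 normalized counts at baseline, 28397, 7293 and 38376 in ischemic controls, 5242, 5890.3, 9948 and 28519 after arterial infusion, and 7101, 10712, 5610.2 and 3139 after portal infusion. Type IV collagens reached 7165 and 6893 at baseline, 13461, 8780.0 and 10187 in controls, 5824, 5873, 4809 and 12232 after arterial infusion, and 7685, 6446, 5357 and 4218 after portal infusion. Type VI collagens reached 1515 and 4147, then 8261, 3831 and 14545, then 2349, 1020.4, 2574 and 8058, then 7076, 1573, 1196 and 2041 in the same order. These sums weight long transcripts more than short ones, and are therefore compared only between libraries. The 3 controls lay above baseline in the type IV sum, while in the fibrillar sum control 2 lay below baseline.

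The ratio of fibrillar to type IV counts in a library does not depend on how libraries are scaled. It was 1.68 and 2.83 at baseline, between 0.831 and 3.77 in ischemic controls, between 0.900 and 2.33 after arterial infusion and between 0.744 and 1.66 after portal infusion. On the log2 scale the group means were 1.12 ± 0.53 (SD, n = 2), 0.91 ± 1.10 (n = 3), 0.53 ± 0.70 (n = 4) and 0.06 ± 0.49 (n = 4). Infused livers differed from controls by -0.61 on this scale, less than the SD of the controls, and the difference was -0.11 without ischemic control 3 and -1.20 without ischemic control 2. Arterial livers differed from controls by -0.38, and by 0.13 without ischemic control 3. Portal livers differed from controls by -0.84, between -1.43 and -0.34 with 1 library left out, while a mean of logs over the members gave 0.33. The 4 lowest ratios, 0.744 to 0.924, were those of the 4 libraries of lowest quality weight, and the other 9 libraries lay between 1.00 and 3.77. Among those 9 the difference of infused livers from controls was -0.92, that of portal livers -1.10 and that of arterial livers -0.74, and controls differed from baseline by 0.37 in place of -0.21. These differences were not tested.

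**Figure D3:**
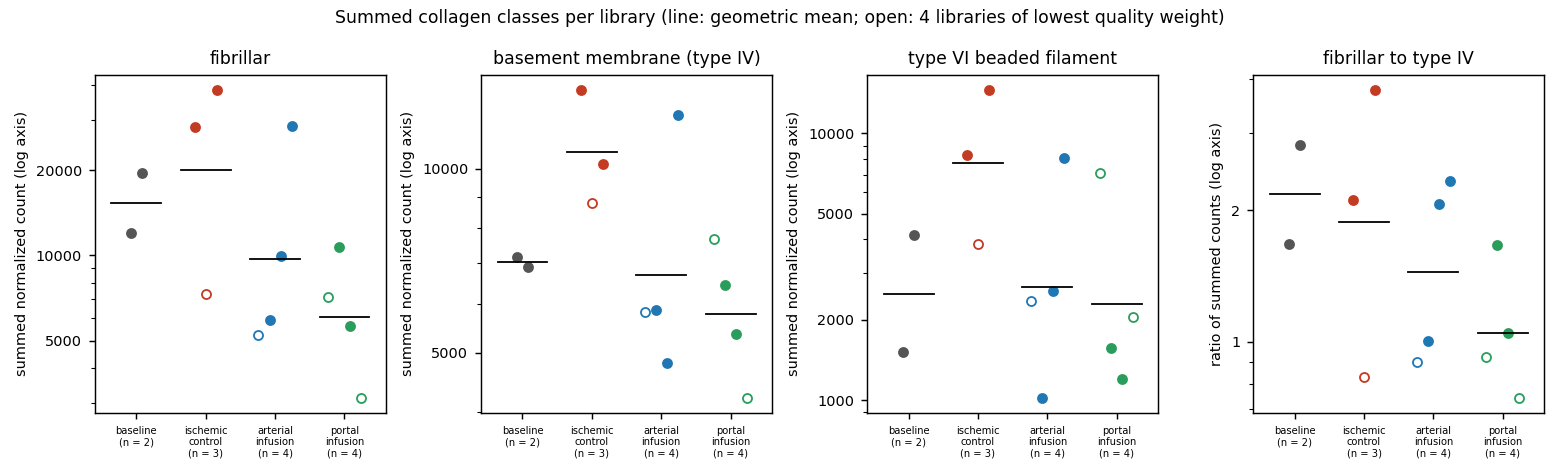
Summed normalized counts (log axis) of fibrillar, type IV and type VI collagens in each library, and the ratio of fibrillar to type IV counts, by group, with the geometric mean as a line and the 4 libraries of lowest quality weight as open circles. The open circles are the 4 lowest ratios, from 0.744 to 0.924.

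Chains that assemble into 1 molecule did not keep a constant read ratio. COL1A1 had 0.862 and 0.871 reads for each COL1A2 read at baseline and 2.22, 1.97 and 4.52 in the 3 ischemic controls. After infusion the ratio was 1.96, 0.770, 0.980 and 2.93 in the arterial livers and 4.36, 0.988, 0.914 and 4.38 in the portal livers. The libraries thus lay either between 0.770 and 0.988 (both baseline livers, arterial infusion 2 and 3 and portal infusion 2 and 3) or between 1.96 and 4.52 (all 3 controls, arterial infusion 1 and 4 and portal infusion 1 and 4). COL1A1 to COL3A1 split the same libraries, with 0.233 to 0.364 in the former and 0.944 to 4.34 in the latter. All 4 libraries of lowest quality weight were in the high set, and so were ischemic controls 1 and 3 and arterial infusion 4, which were not among them. These sets were seen in the data and are not groups of the study, so they were given no test.

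COL6A1 to COL6A2 behaved differently. It was 3.49 to 6.18 in the 4 libraries of lowest quality weight and 0.768 to 2.11 in the other 9, which include ischemic controls 1 and 3. Likewise COL1A2 to COL3A1 was 0.503 to 1.15 in those 4 libraries and 0.255 to 0.449 in the others. COL4A1 to COL4A2 was the steadiest pair, with an SD of 0.38 on the log2 scale over 13 libraries against 0.99 for COL1A1 to COL1A2, 1.55 for COL1A1 to COL3A1 and 0.98 for COL6A1 to COL6A2. It lay between 0.778 and 1.23 in the 4 low-weight libraries and between 1.17 and 2.30 in the others. The part of RNA quality in these ratios was not tested.

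**Figure D4:**
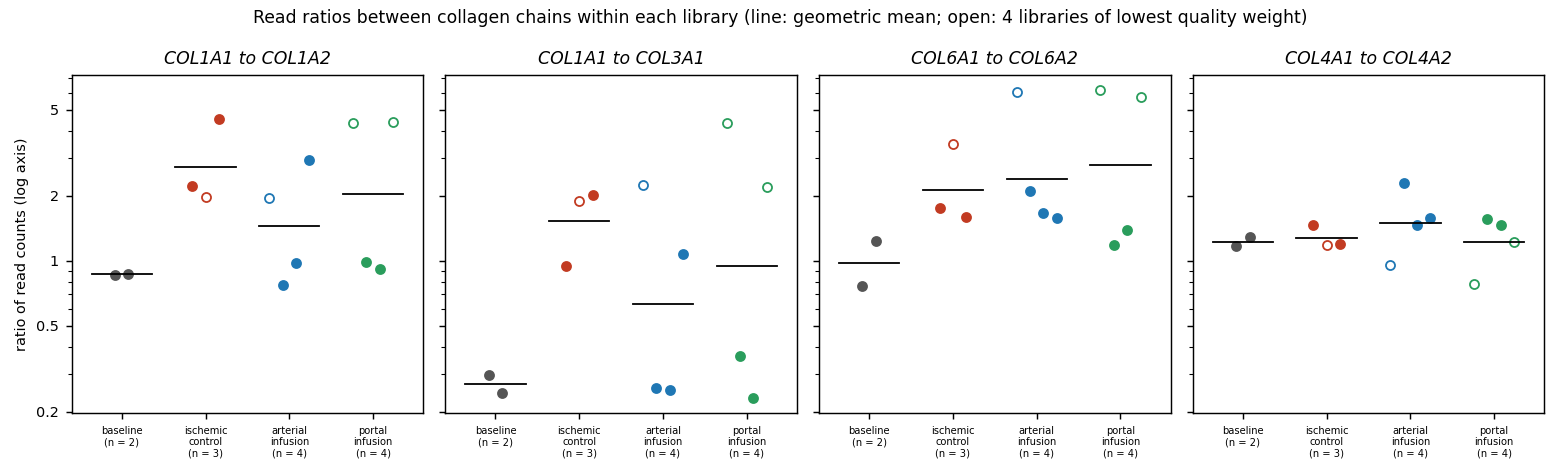
Ratio of read counts between pairs of collagen chains in each library (log axis), by group, with the geometric mean as a line and the 4 libraries of lowest quality weight as open circles. COL6A1 to COL6A2 was 3.49 or more in the open circles only, whereas COL1A1 to COL1A2 was 2.22 and 4.52 in ischemic controls 1 and 3 as well.

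Marker genes of the cells that make collagen were read beside these results. Of the portal fibroblast markers, 7 were tested, and all 7 had estimates above 0 in ischemic controls against baseline (median 0.54) and below 0 in infused livers against controls (median -1.09, 3 with an unadjusted p under 0.05 in edgeR and none with an adjusted one, where 1.41% of all genes were lower at the unadjusted level). Their summed normalized counts were 2859 to 3435 at baseline, 2884 to 7562 in controls, 1954 to 4253 after arterial infusion and 1752 to 2890 after portal infusion. The highest sum was that of ischemic control 3, where ELN, the elastin gene, reached 630.2 against 259.5 or less elsewhere, and ENTPD2 was at 0 in 7 libraries. MFAP4, a microfibril protein and the marker of this list with the smallest p over the 4 groups, had log2 fold changes of 1.24 ± 0.58 and -1.09 ± 0.39 in these comparisons (edgeR, unadjusted p = 0.0496 and 0.0146, adjusted p = 0.978 and 1.00). Of the 9 stellate cell markers tested, 6 were below 0 in infused livers (median -0.27), and their sum was 5248 to 8149 at baseline, 4869 to 8066 in controls, 3725 to 8276 after arterial and 3255 to 5501 after portal infusion. Smooth muscle markers were 3 above and 3 below 0 in both comparisons. Of 8 endothelial markers tested, 7 were below 0 in infused livers (median -0.27), as were 3 of 6 cholangiocyte, 3 of 7 leukocyte and 5 of 9 hepatocyte markers. The part of any cell type in the collagen values was not tested. Capsule cells had few reads, with the 4 mesothelial markers present summing to 39.0 or less, and KRT5 and CALB2 at 0 in all 13 libraries.

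The genes that make, process and break down collagen were described by lists. None of their members passed the adjusted threshold in any comparison. Of 16 genes for chain modification and folding, 12 were above 0 in controls against baseline (median 0.76) and 14 below 0 in infused livers (median -0.50), with 2 higher and 0 lower at an unadjusted p under 0.05 in the former, where 4.37% of all genes had one in either direction, and 0 in the latter. P4HA1, a prolyl hydroxylase subunit that hardens the helix, had the smallest p of this list over the 4 groups and an estimate of the other sign, at 2207 and 5864 normalized counts at baseline and 1922, 445 and 3039 in controls (log2 fold change -1.13 ± 0.85). Of 12 genes for degradation and its inhibitors, 8 were above 0 in controls and 11 below 0 in infused livers. MMP2, a gelatinase, had 177 and 483 normalized counts at baseline, 822, 350.2 and 1159.9 in controls, 137, 188, 312 and 703 after arterial infusion and 319.7, 248, 173 and 239 after portal infusion. In MMP2, 7 of the 8 infused livers lay below all 3 controls, with a log2 fold change of -1.49 ± 0.48 (edgeR, unadjusted p = 0.00746, adjusted p = 1.00).

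Export and propeptide removal genes were even, 5 above and 5 below 0 in both comparisons. ADAMTS2, which trims the amino end of procollagen, had 115 and 224 normalized counts at baseline, 336, 80.6 and 312 in controls, 45.5, 55.7, 76.3 and 209 after arterial and 50.3, 116, 101 and 56.4 after portal infusion. Like COL1A2 and COL3A1, it was low in ischemic control 2 and high in arterial infusion 4, and its log2 fold change in infused livers was -1.50 ± 0.56 (edgeR, unadjusted p = 0.0178, adjusted p = 1.00). Of 7 fibril-associated proteoglycans, 5 were below 0 in infused livers (median -0.77). FMOD, fibromodulin, which binds type I fibrils, had 184 and 504 at baseline, 515, 269.7 and 768 in controls, and between 77.1 and 519.7 in infused livers (log2 fold change -1.36 ± 0.50, edgeR, unadjusted p = 0.0157, adjusted p = 1.00).

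Of 12 basement membrane partners, 10 were below 0 in infused livers (median -0.33), led over the 4 groups by NID1, nidogen, which links type IV collagen to laminin. It had 4118 and 6843 at baseline and 943 to 3359.5 in the 11 livers at 6 h, so that no 6 h library reached baseline, and its log2 fold change was -1.17 ± 0.59 in controls and -0.25 ± 0.44 in infused livers against controls. This was opposite to COL4A1 and COL4A2 in the controls. Cross-linking genes were 5 of 7 and collagen receptors 5 of 7 below 0 in infused livers (medians -0.35 and -0.24). LOXL4, a cross-linking oxidase, had 2946 and 877 at baseline and 134 to 4758 at 6 h, and ITGA1, a collagen receptor chain, had 1328 and 1432 at baseline and 238 to 1462 at 6 h.

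The transforming growth factor beta axis, the main inducer of collagen synthesis, had members in both directions. Of its 14 genes, 12 were below 0 in controls against baseline (median -0.36) and 9 below 0 in infused livers (median -0.10), while 9 were above 0 in arterial livers against controls. Over the 4 groups 4 had an unadjusted p under 0.05 in edgeR, against 2.39% of all genes. In controls against baseline 1 was higher and 1 lower at this level, where 4.37% of all genes had such a p in either direction. The summed normalized counts of the list were 12085 to 17231 at baseline, 14399 to 24567 in controls, 14143 to 29506 after arterial and 9556 to 20041 after portal infusion. LTBP2, a matrix protein related to the latent growth factor binders, had 404 and 911 normalized counts at baseline, 142, 84.1 and 167 in controls, 133, 315, 211 and 191 after arterial and 208, 266, 170.6 and 134 after portal infusion. Every 6 h library lay below both baseline libraries in LTBP2, with a log2 fold change of -2.31 ± 0.55 in controls against baseline (edgeR, unadjusted p = 0.000807, adjusted p = 0.978).

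**Figure D5:**
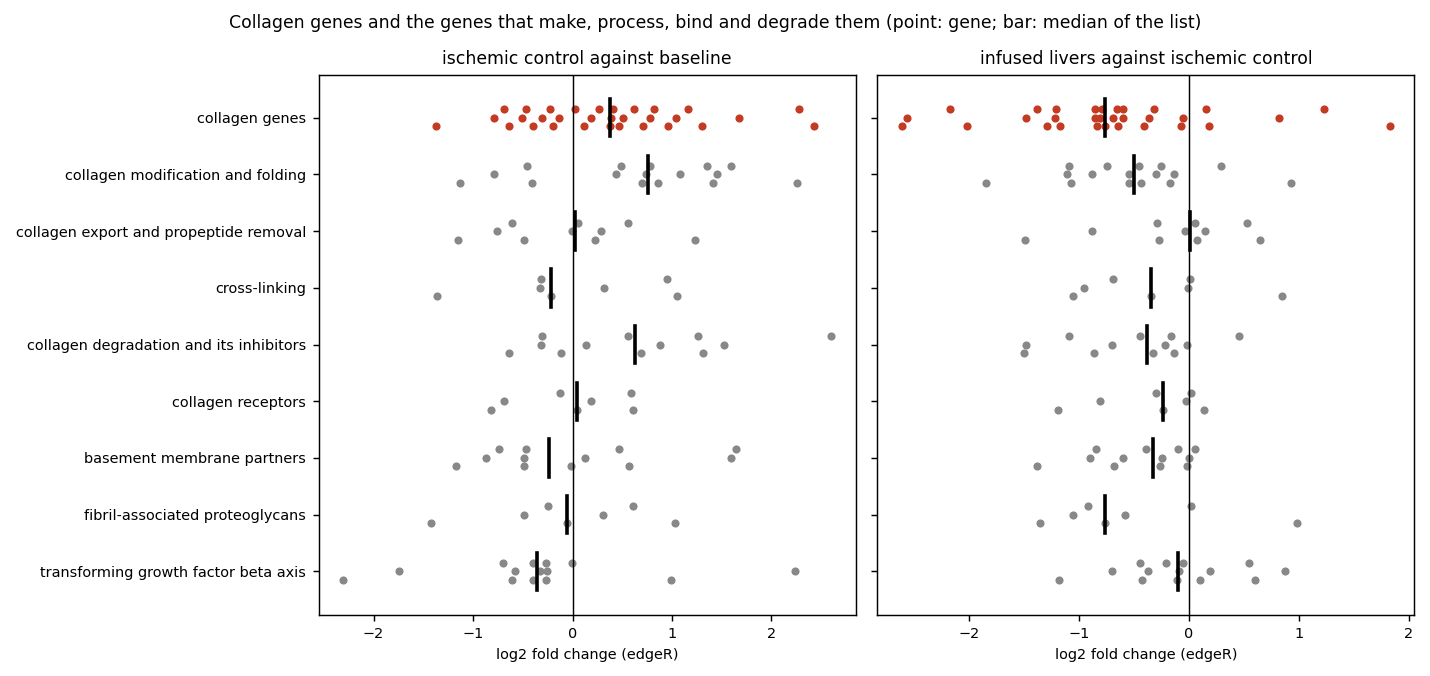
Log2 fold changes (edgeR) of the collagen genes and of the genes in 8 lists around them, in ischemic controls against baseline and in infused livers against ischemic controls, 1 point per tested gene and a bar at the median of each list. The collagen median was 0.37 in the left panel and -0.77 in the right panel, and the panels share the 3 ischemic controls.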

How the data were processed

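Liver RNA was sequenced from 13 pig libraries, poly-A selected and without strand. The authors mapped reads to Sscrofa11.1 with HISAT2, assigned them to Ensembl genes with FeatureCounts, and deposited the raw counts per gene; tool versions are not given in the sources used here, and the labels name another RNA kit than the sequencing methods. Groups and replicate numbers came from the labels, and 0 columns were left without a sample. Each 6 h library was described as 1 pig. Replicates differed by more than sampling noise (smallest chi-square per gene 77.1).

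edgeR 4.0.16 was run under R 4.3.3 (TMM scaling, low counts removed by filterByExpr, quasi-likelihood F-test, all 13 libraries in 1 fit, Benjamini-Hochberg over 16481 genes, threshold 0.05). The estimated common biological coefficient of variation was 0.729. Normalized counts are counts divided by DESeq2 1.42.0 size factors. limma 3.58.1 gave the sample quality weights, fitted with the 4 groups in the design. A low weight thus marks a library that lies far from the others of its group. It is not a measure of RNA quality. Exact permutation tests were two-sided, on mean log2(normalized count + 1). Tests were tried on simulated data. Fold changes are log2 with standard errors. The library totals set the precision of each count.

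Named genes were, by rule, the 5 fibrillar, 4 type IV and 9 other tested collagens with the highest level, any collagen past the adjusted threshold, that with the smallest unadjusted p in each comparison, and the gene of each list with the smallest p over the 4 groups. COL5A3, COL24A1 and COL27A1 were added after their values were seen. The rule was meant for reads per kilobase; as transcript lengths were not used here, normalized counts replaced them, and levels are not compared between genes. Collagen genes and gene lists were chosen with earlier results of these data known. Positions are RefSeq's for 38 of the 40 genes. Alternatives were DESeq2, limma voom with quality weights, other scalings and filters, only the libraries compared, a replicate block, each library left out, and, chosen after seeing the data, the 4 libraries of lowest quality weight left out.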

Additional observations from a re-analysis of the deposited data

Results flagged for a closer look

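Over collagen genes and chain ratios, 56 groups of 4 infused livers were examined, and 10 held a value standing far from the other 3 (Dixon's test at 95%). The test was run on counts and ratios without logs. Its chance rate of about 1 in 20 holds for normal values, and skewed values such as these give high ones more often. The number flagged is therefore not read as an excess. All 10 were high values, and 6 of them belonged to arterial infusion 4. There the normalized counts were 10968 for COL1A1, 2012 for COL5A1, 2024 for COL6A3, 1380.1 for COL6A5, 999 for COL12A1 and 334 for COL16A1. Arterial infusion 4 also had the highest summed endothelial (19346), leukocyte (13144.5), cholangiocyte (6543) and stellate cell (8276) markers of all libraries. It was not highest in the hepatocyte, portal fibroblast, smooth muscle or mesothelial sums. Portal infusion 1, of lowest quality weight, stood high in COL6A5 at 220.3 and in COL16A1 at 235. In arterial infusion 1 the ratio of COL1A2 to COL3A1 was 1.15 and that of COL6A1 to COL6A2 was 6.02. These genes are not independent of each other, since each library gives all of its values.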

How the results depend on the processing

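Of 848 values of 37 log2 fold changes of collagen genes under the alternatives, 0 changed sign, and of 207 values of 9 fold changes of genes of the lists, recomputed after seeing the data, 0 did. These were the fold changes chosen for printing, and many alternatives only drop 1 library of the same data. Directions of other collagens did change, as between the routes without arterial infusion 4. The adjusted threshold was passed by 7 of the collagen fold changes under 1 alternative each: COL1A1, COL6A2 and COL6A5 without a filter on low counts, in infused and in portal livers against controls, and COL6A1 in controls against baseline with DESeq2 on the libraries compared. That setting also called LTBP2 of the lists. No call was lost, as none had been made. Without the filter the number of genes called, 0 in edgeR, was 95 over the 4 groups, 28 in 6 h livers against baseline, 30 in controls against baseline, 19 in infused, 11 in arterial and 14 in portal livers against controls, and 5 between the routes, with 3 collagens over the 4 groups, 3 in infused and 3 in portal livers. DESeq2 called 7, 14, 5, 1, 4 and 1 genes over the 4 groups, in 6 h livers, in controls against baseline, in infused and in portal livers and between the routes. DESeq2 on the libraries compared called 166 genes and 1 collagen in controls against baseline and 3 genes in portal livers, and limma voom 46 over the 4 groups and 111 in 6 h livers. Without the 4 libraries of lowest quality weight 1 gene was called over the 4 groups, 1 in infused and 1 in arterial livers. The cause of these differences was not tested. Leaving out 1 library at a time, 0 genes and 0 collagens were called in every comparison. The log2 ratio of fibrillar to type IV counts, taken as a mean of logs over members, which weights low genes as much as high ones, differed by 0.39 in 6 h livers against baseline, 0.33 in portal livers against controls and -0.57 between the routes, where the summed counts gave -0.62, -0.84 and 0.47. Leaving out 1 library, these sums gave -0.997 to -0.24, -1.43 to -0.34 and 0.24 to 0.69, controls against baseline -0.72 to 0.37, infused livers -1.20 to -0.11 and arterial livers -0.96 to 0.13.

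Replicate numbers were not taken to pair livers. Of 16 pairs with the same number in different groups, 5 deviated together with a correlation over 0.1 (range -0.42 to 0.43). Of 46 pairs with different numbers, 15 did (range -0.53 to 0.44), so the numbers did not set closer pairs apart. Only pairs that hold a baseline library could come from 1 pig, and they were not examined by themselves. With the replicate number as a block, 0 genes and 0 collagens were called, and COL1A1 in infused livers against controls was -2.70. Tests on only the libraries compared were not run for the 4 groups or 6 h livers, which use all libraries. Differences from baseline rest on 2 livers.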
